A study of Mus with 2 samples.

Results

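A set of 32 genes of fatty acid oxidation and of the PPAR programme was followed by gene name through a single-cell comparison of senescent with young mouse kidney, which listed 8191 distinct genes in all. Of the 32 genes, 31 were listed in at least 1 cluster, and Fabp4 was listed in none. The study dissociated whole kidneys of senescent and of young C57BL/6 mice and made 1 droplet library from each group. The series states 4408 cells for the senescent and 10895 for the young mice. No genetic change, drug or diet is named for either group, and the sources used here do not give the ages, the sexes or the number of mice per library. Each group had a single library, and the spread between mice is unknown, so every value below is the mean of 1 library over the cells of a cluster, without SD, and no test between the groups was run.

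Fatty acids are activated to acyl-CoA by synthetases, carried into mitochondria by the carnitine shuttle, and shortened there by a cycle of dehydrogenation, hydration, oxidation and thiolysis whose first electrons pass through the electron transfer flavoprotein to the respiratory chain. Peroxisomes run a parallel cycle for very long and branched chains, and cytochromes of the Cyp4a family start oxidation from the other end of the chain in the endoplasmic reticulum. The nuclear receptor PPAR alpha, with its coactivator PGC-1 alpha, switches on many of these genes when fatty acids are plentiful, and the proximal tubule of the kidney is known to draw most of its energy from this pathway.

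The clusters are called by the authors' labels, which are PT, LOH, endo and Marco, and further T, B and Neutro. A cluster's entries in the authors' deposited table are limited to genes with a p-value over cells under 0.05 and a log2 fold change of 0.36 or more in either direction, so a gene that is not listed cannot be called unchanged, and every listed gene differs by construction. A gene was counted as called where its adjusted p in the authors' deposited table did not exceed 0.05 and its means differed at least 2-fold (a log2 fold change of 1 in either direction). These p-values measure spread between cells of 1 library per group, not between mice. The labels were set against markers as far as listed genes allow. Slc34a1, the sodium phosphate cotransporter of the proximal tubule, had a mean of 18.7 in the senescent library and 25.7 in the young library of PT. In Marco its mean was 1.62 in the senescent and 21.9 in the young library, so its level sets PT apart from Marco in the senescent library and hardly in the young library. Umod, the defining transcript of the thick ascending limb, had a mean of 148 in senescent LOH and 47.6 in young LOH. Summed over the listed markers of each type, macrophage markers were at 200.2 in senescent and 33.2 in young Marco, T cell markers at 87.5 in senescent and 22.8 in young T, and B cell markers at 92.3 in senescent and 36.2 in young B. None of 13 endothelial markers was listed in endo, so that label could not be checked by them. Slc34a1 was at 11.5 in the senescent and 17.0 in the young library of endo. Its senescent mean there was nearer to PT than to Marco.

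In PT, both regulators, the listed genes of fatty acid activation and entry (Acsl1 and Cpt1a), Pdk4, Cyp4a14 and Fabp1 were higher in the senescent library. Most of the abundant enzymes of the cycle that were listed were lower, as was Fabp3, though only Acads, Ech1 and Fabp3 were called lower. Hadha, an enzyme of the cycle, and Pex11a were called higher. PPAR alpha switches on many genes of the cycle as well, so the pattern is no split of PPAR targets from other genes. Of the 32 genes, 23 were listed in PT, 13 of them higher and 10 lower, and 9 were not listed there. Of all genes listed in PT, 78.4% were higher. By the authors' deposited table, 9 were called higher and 3 lower. These are 39.1% and 13.0% of the 23 listed members, where 57.2% and 5.60% of all 5037 genes listed in PT were called higher and lower. The share of members called higher was thus below that of all listed genes, and the share called lower was above it. The 23 members summed to 45.6 in the senescent library and 49.6 in the young library.

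**Figure D1:**
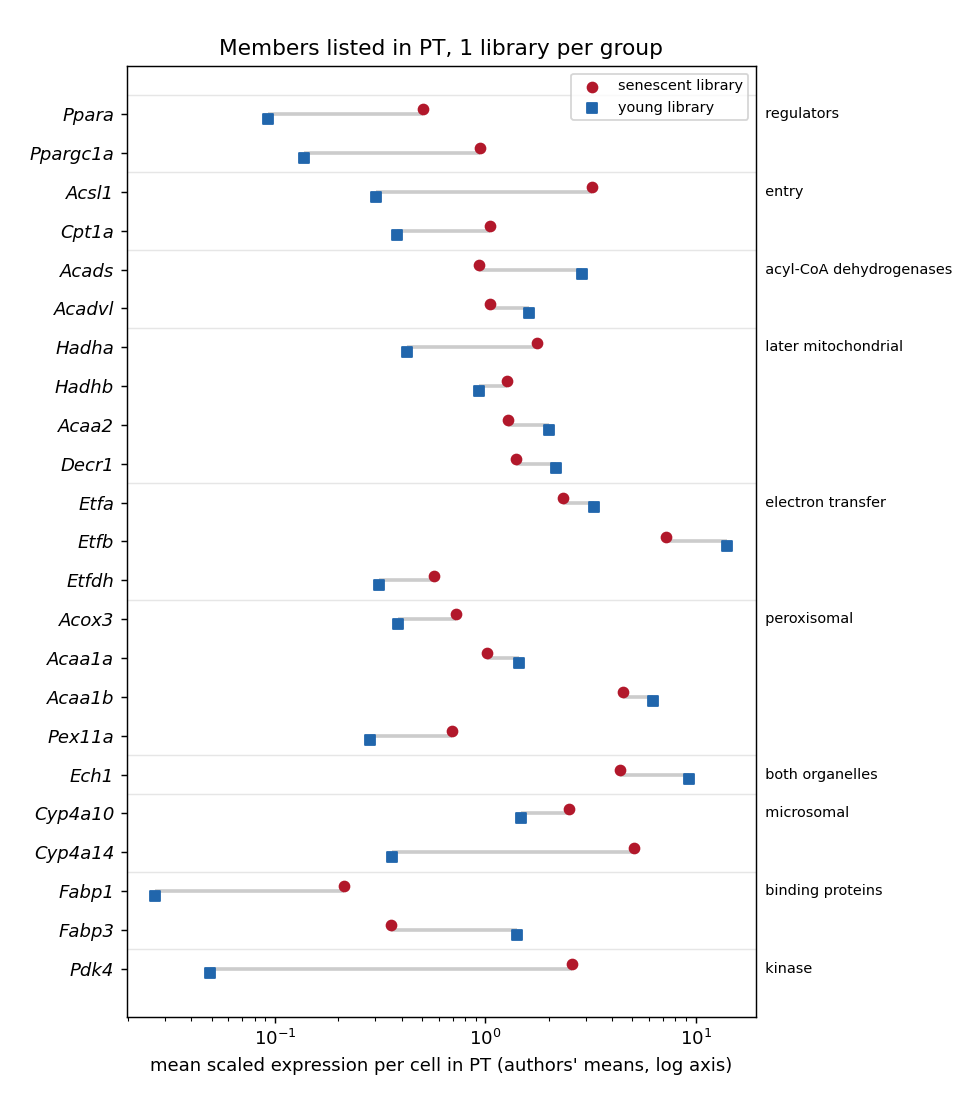
Mean scaled expression per cell in PT (log axis) of the 23 listed genes, grouped by role from top to bottom, in the senescent library (circles) and the young library (squares), with a grey line joining the pair. Pdk4, Cyp4a14 and Acsl1 lie farthest to the right of their young values, and Fabp3 and Acads lie farthest to the left.

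Both regulators were called higher in PT. Ppara, which encodes the receptor PPAR alpha, had a mean of 0.505 in the senescent library and 0.0927 in the young library, a 5.45-fold difference. Ppargc1a, which encodes the coactivator PGC-1 alpha, a driver of mitochondrial gene expression, had a mean of 0.945 in the senescent and 0.137 in the young library and was 6.91-fold higher.

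Of the 3 genes that feed acyl chains into the mitochondrion, 2 were listed in PT, both called higher. Acsl1, a long-chain acyl-CoA synthetase, had a mean of 3.21 in the senescent and 0.302 in the young library, a 10.6-fold difference. Cpt1a, the outer-membrane carnitine palmitoyltransferase that sets the rate of entry, had a mean of 1.06 in the senescent and 0.379 in the young library and was 2.79-fold higher. Its inner-membrane partner Cpt2 was not listed in PT. Pdk4, a kinase that switches off pyruvate dehydrogenase and so spares glucose when fat is burnt, was the member with the largest fold, 52.5, at 2.57 in the senescent and 0.0490 in the young library. The young value of Pdk4 is low, so the size of its fold is uncertain.

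The 4 acyl-CoA dehydrogenases among the members carry out the first step of the mitochondrial cycle on chains of different length, and the 2 listed in PT were lower. Outside the members, the acyl-CoA dehydrogenase genes Acad11 and Acadsb were called higher in PT. Acad11 was at 0.919 in the senescent and 0.404 in the young library, and Acadsb at 0.400 in the senescent and 0.185 in the young library. Acads, for short chains, was called lower, at 0.935 in the senescent and 2.89 in the young library, 3.09-fold lower. Acadvl, for very long chains, was at 1.05 in the senescent and 1.62 in the young library, 1.54-fold lower, which met the adjusted p of the authors' deposited table but not the fold threshold. Acadm and Acadl, for medium and long chains, were not listed in PT.

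The later steps went both ways in PT. Hadha and Hadhb encode the alpha and beta subunits of the mitochondrial trifunctional protein, which hydrates, oxidises and cleaves long chains. Hadha was called higher, at 1.75 in the senescent and 0.424 in the young library, a 4.12-fold difference. Hadhb was at 1.27 in the senescent and 0.933 in the young library, 1.36-fold higher and short of the fold threshold. The ratio of the Hadha to the Hadhb mean was accordingly 1.38 in the senescent and 0.455 in the young library. These genes lie side by side on chromosome 5 in the mm10 build, Hadha at chr5:30119423-30154980 and Hadhb at chr5:30155253-30184593, with 272 bases between them by the RefSeq annotation of that assembly.

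Acaa2, the mitochondrial thiolase, was at 1.28 in the senescent and 2.00 in the young library of PT, and Decr1, the reductase needed for chains with several double bonds, was at 1.40 in the senescent and 2.16 in the young library. Both met the adjusted p of the authors' deposited table as lower and missed the fold threshold. Hadh, the dehydrogenase of medium and short chains, and Eci1, the isomerase for unsaturated chains, were not listed in PT.

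The electron transfer genes were split in the same cluster. Etfb, the beta subunit of the electron transfer flavoprotein, had a mean of 7.24 in the senescent and 14.1 in the young library, 1.94-fold lower. Etfa, its alpha subunit, was at 2.33 in the senescent and 3.30 in the young library, 1.42-fold lower. Etfdh, the membrane enzyme that passes these electrons on to ubiquinone, was 1.81-fold higher, at 0.568 in the senescent and 0.314 in the young library. All 3 met the adjusted p of the authors' deposited table and none reached the fold threshold.

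Of the 6 peroxisomal genes, 4 were listed in PT, and they too went both ways. Pex11a, a membrane protein that promotes peroxisome division, was called higher, at 0.698 in the senescent and 0.283 in the young library, 2.47-fold. Acox3, an acyl-CoA oxidase of branched chains, was 1.89-fold higher, at 0.724 in the senescent and 0.383 in the young library. The thiolase gene Acaa1b was at 4.53 in the senescent and 6.25 in the young library, and its close copy Acaa1a was at 1.01 in the senescent and 1.44 in the young library. Since Acaa1a and Acaa1b are near-identical, how reads were split between them is uncertain. Ehhadh, the bifunctional enzyme of straight chains, and Hsd17b4, that of branched chains, were not listed in PT. Ech1, an isomerase found in both organelles, was called lower, at 4.37 in the senescent and 9.30 in the young library, and its functional relative Eci2 was not listed.

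Cyp4a14 and Cyp4a10, fatty acid omega-hydroxylases and classical PPAR alpha targets, differed in size. Cyp4a14 was called higher, at 5.07 in the senescent and 0.360 in the young library, a 14.1-fold difference. Cyp4a10 was 1.68-fold higher, at 2.48 in the senescent and 1.47 in the young library, short of the fold threshold. The genes are neighbours on chromosome 4, Cyp4a14 at chr4:115486200-115496158 and Cyp4a10 at chr4:115518287-115533649, and belong to a cluster of close copies, so the split of reads among them is uncertain. The fatty acid binding proteins went opposite ways. Fabp1, the liver type and a PPAR alpha target, was called higher, at 0.212 in the senescent and 0.0270 in the young library. Its means are low, so the size of its difference is uncertain. Fabp3, the heart type, was called lower, at 0.358 in the senescent and 1.41 in the young library.

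Peroxisomal and mitochondrial members were compared in PT by the log2 ratio of the senescent to the young mean after adding 1 to each, which understates the change of low genes. The median was 0.02 over the 4 listed peroxisomal genes and -0.36 over the 10 listed mitochondrial genes, a difference of 0.38. The median of all genes listed in PT was 0.23, above both. By counts, 2 of 4 peroxisomal and 4 of 10 mitochondrial genes were higher. The peroxisomal value rests on a pair of higher and a pair of lower genes. Without Pex11a, which is no enzyme of the cycle, it was -0.28 and the difference was 0.09, and the same values were obtained with Ech1 counted as peroxisomal. In the authors' deposited table all 15 mitochondrial genes carried a mitochondrial term of the gene ontology and all 6 peroxisomal genes a peroxisomal term, but 5 of these 6 also carried a mitochondrial term.

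**Figure D2:**
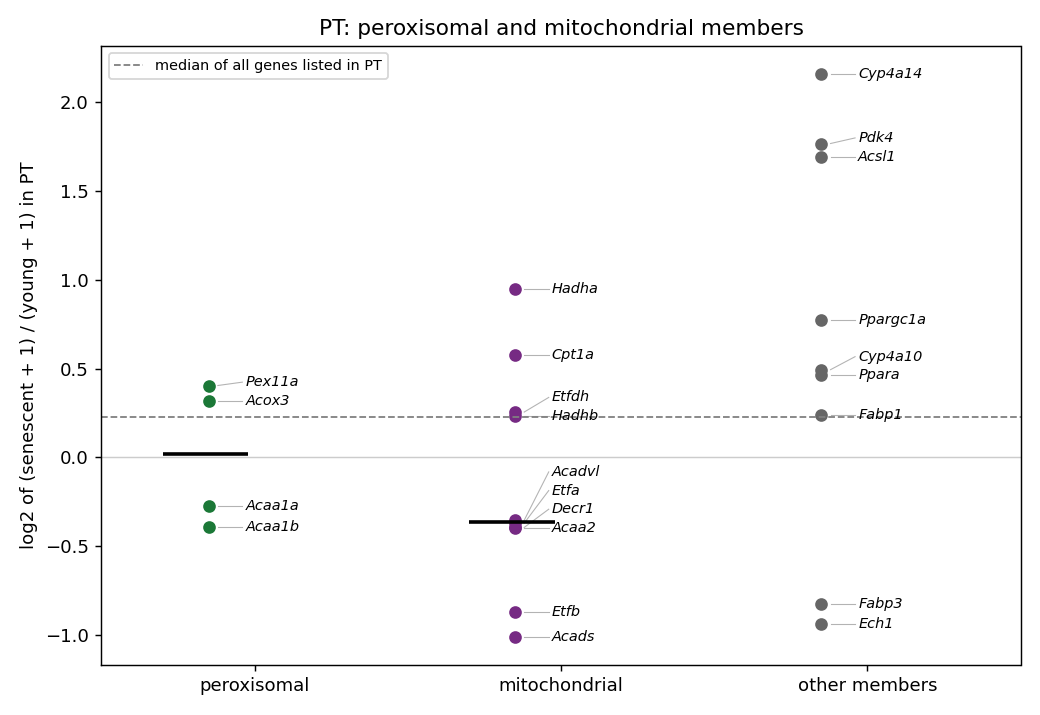
Log2 ratio of the senescent to the young mean in PT after adding 1 to each, for peroxisomal, mitochondrial and other members, 1 point per gene. Bars mark the medians of 0.02 (peroxisomal) and -0.36 (mitochondrial), and the dashed line marks the median of 0.23 over all genes listed in PT. The other members spread from Ech1 at -0.94 to Cyp4a14 at 2.16.

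The direction in PT differed with the level of the gene, among the members as among all listed genes. Where the mean of both libraries was below 0.5, all 4 members and 90.7% of 3209 listed genes were higher. Between 0.5 and 2, 8 of 14 members and 65.7% of 1316 genes were higher. At 2 or above, 1 of 5 members, Cyp4a14, and 34% of 512 genes were higher. The part of the level in the direction of single members was not tested.

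Kap, an androgen-induced kidney transcript, was among the genes that differed in PT. It had a mean of 21.4 in the senescent and 719 in the young library. Of the 24 proximal tubule markers, 10 were higher and 9 lower in PT, none was at 0, and they summed to 240.5 in the senescent and 959 in the young library, or 219 in the senescent and 240.3 in the young library without Kap. Cyp4a14 is known to be higher in female than in male mouse kidney. The part of androgen status in the values of Cyp4a14 and the other members was not tested.

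Other genes of the pathway were taken from lists of its regulators, its further PPAR targets and its further enzymes, and their counts in PT are read against the 78.4% of all listed genes that were higher, the 57.2% called higher and the 5.60% called lower. All 14 listed genes of 29 other receptors, coactivators and kinases were higher, and 10 were called (71.4%). Of all listed genes with a mean of both libraries below 0.5, 90.7% were higher, and of those between 0.5 and 2, 65.7%. Of the regulators named here, Nrip1 and Ncor1 lie between 0.5 and 2 and the others below 0.5. The levels of the listed regulators that are not named are not given here. The share called higher was not computed by level. Ppargc1b, which encodes the related coactivator PGC-1 beta, was at 0.362 in the senescent and 0.0236 in the young library, and Nrip1, a corepressor of nuclear receptors, was at 1.51 in the senescent and 0.195 in the young library. The list holds corepressors as well as coactivators, and Ncor1, a corepressor, was at 2.06 in the senescent and 0.526 in the young library. Its other named members were the coactivators Med1 (5.12-fold higher) and Ncoa2 (4.66-fold higher) and the orphan receptor gene Esrrg (3.82-fold higher).

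Of 42 other PPAR targets and genes of fatty acid uptake, 19 were listed in PT, 17 higher and 2 lower, with 11 called higher (57.9%) and 2 called lower (10.5%). The share called higher is close to the 57.2% of all listed genes. Txnip, a brake on glucose uptake and thioredoxin, was at 9.28 in the senescent and 0.244 in the young library, a 38.0-fold difference. Angptl4, an inhibitor of lipoprotein lipase, was 6.76-fold higher, at 2.60 in the senescent and 0.385 in the young library. Acsl4, Acot3 and Slc27a1, which activate, release and import fatty acids, were 5.18-fold, 4.77-fold and 4.44-fold higher.

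The further mitochondrial enzymes were 8 higher and 7 lower of 15 listed among 23, with 6 called higher (40.0%, beside 57.2% of all listed genes) and 2 called lower (13.3%, beside 5.60%). Acot2, a mitochondrial acyl-CoA thioesterase, was 5.02-fold higher, at 0.990 in the senescent and 0.197 in the young library. The carnitine transporters Slc25a20, of the inner mitochondrial membrane, and Slc22a5, of the plasma membrane, were 4.28-fold and 2.92-fold higher. Of 43 further peroxisomal genes, 30 were listed, 16 higher and 14 lower, with 9 called higher (30.0%) and 5 called lower (16.7%), against the same shares of all listed genes. Pecr, a peroxisomal enoyl-CoA reductase, was 5.12-fold lower, at 1.97 in the senescent and 10.1 in the young library, and Amacr, a racemase of branched chains, was 5.02-fold lower, at 0.882 in the senescent and 4.43 in the young library. Decr2, the peroxisomal counterpart of Decr1, was 3.91-fold higher, at 0.554 in the senescent and 0.142 in the young library.

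**Figure D3:**
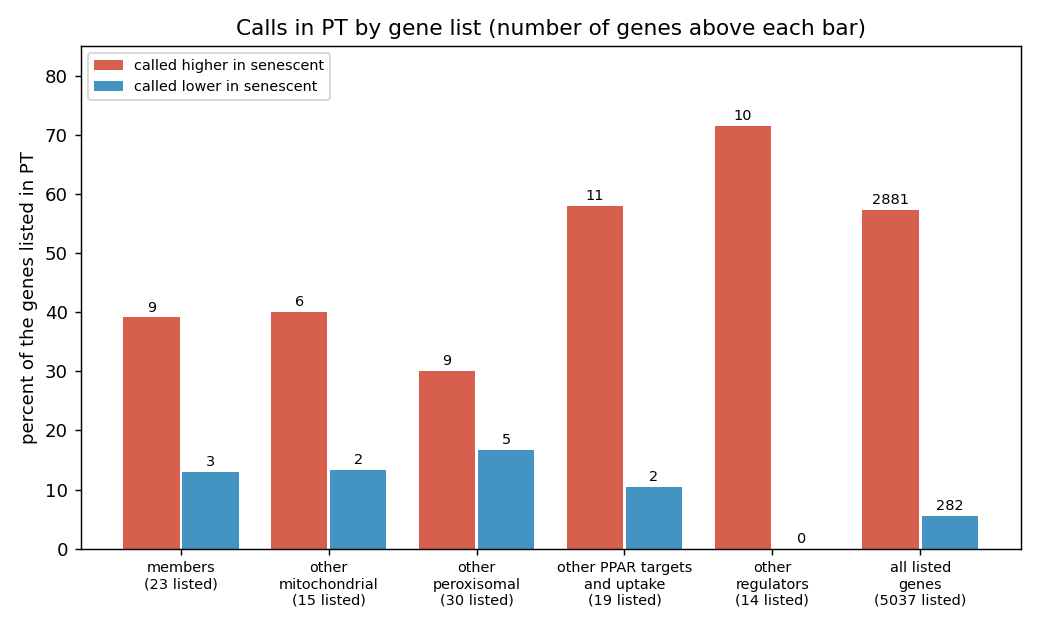
Percent of the genes listed in PT that were called higher (left bar of each pair) or lower (right bar) in the senescent library, for the 23 listed members, 4 lists of other pathway genes and all 5037 listed genes, with the number of genes above each bar. Other regulators (71.4%) and other PPAR targets (57.9%) had the highest shares called higher, beside 57.2% of all listed genes.

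In LOH, 16 of the 32 genes were listed, 4 higher and 12 lower. By the authors' deposited table, 0 were called higher and 3 lower (18.8%), where 2.16% and 6.87% of the 1761 genes listed in LOH were called. The 3 were Decr1, at 0.531 in the senescent and 1.27 in the young library, Acaa2, at 1.05 in the senescent and 2.21 in the young library, and Acaa1b, at 0.649 in the senescent and 1.86 in the young library. Acadm, Hadh and Etfb were also lower and met the adjusted p of the authors' deposited table, by 1.67-fold, 1.86-fold and 1.94-fold. The proximal tubule markers were lower in all 21 listed of 24 in LOH, with summed means of 35.9 in the senescent and 309.9 in the young library, or 34.3 in the senescent and 107.6 in the young library without Kap, and none at 0. Their part in the lower members was not tested.

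The regulator and the entry enzyme were higher in LOH too, without passing the adjusted p. Ppargc1a had a mean of 2.48 in the senescent and 1.49 in the young library, and Cpt1a had a mean of 2.04 in the senescent and 1.07 in the young library. Both genes had higher means in LOH than in PT in either library, with Ppargc1a at 263% of its PT mean in the senescent and 1090% in the young library. The other higher members were Eci2, at 0.782 in the senescent and 0.575 in the young library, and Cyp4a14, at 0.5797 in the senescent and 0.128 in the young library.

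In endo, 6 members were listed and 0 were called in either direction, where 0.389% and 0.584% of the 1028 listed genes were called higher and lower. The 4 with higher means were PPAR targets or entry genes. Pdk4 was at 1.91 in the senescent library and listed at 0 in the young library, and Acsl1 was at 1.77 in the senescent and 0.323 in the young library. Cyp4a14 was at 1.61 in the senescent and 0.0876 in the young library. Cyp4a10 was at 0.911 in the senescent library and had the same young mean as Cyp4a14, so low that the size of either fold is uncertain. Ech1, at 3.02 in the senescent and 3.91 in the young library, and Acaa1a, at 0.930 in the senescent and 1.75 in the young library, were lower. Proximal tubule markers were also listed in endo, 10 of 24, 2 higher and 8 lower, with sums of 109.2 in the senescent and 393.3 in the young library, or 104.9 in the senescent and 99.6 in the young library without Kap, and none at 0. Over the 7 markers listed in both endo and PT, the median in endo was 57.1% of the PT mean in the senescent and 61.8% in the young library. In LOH it was 14.1% in the senescent and 43.5% in the young library, over 16 markers. In Marco, T and B it was 8.85%, 7.42% and 7.62% in the senescent and 99.5%, 82.97% and 66.5% in the young library. Whether endothelial cells express these members cannot be told from the means in endo. The part of tubule transcripts in these values was not tested.

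In Marco, T and B nearly all listed members were lower in the senescent library. Of the members also listed in PT, 8 of 20 in Marco, 9 of 19 in T and 6 of 17 in B were lower there and higher in PT. Among these, only Hadhb, Etfdh and Cyp4a10 in Marco and Cpt1a, Hadhb and Cyp4a10 in T met the adjusted p as lower. The share of all genes with such opposite directions was not computed, so these counts do not set the members apart from other genes. Of all listed genes, 58.3% in Marco, 44.8% in T and 28.2% in B were higher, beside 78.4% in PT. In Marco, 27 were listed, 3 higher and 24 lower, and by the authors' deposited table, 0 were called higher and 18 lower (66.7%), where 22.9% and 23.6% of 4462 listed genes were called. In T, 26 were listed, 1 higher and 25 lower, with 0 called higher and 17 lower (65.4%), where 3.85% and 20.7% of 4368 were called. In B, 25 were listed, 1 higher and 24 lower, with 0 called higher and 9 lower (36.0%), where 2.79% and 15.5% of 3077 were called. In Neutro, Eci1 was the 1 member listed, at 0.236 in the senescent and 2.19 in the young library, and no gene of that cluster was called.

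**Figure D4:**
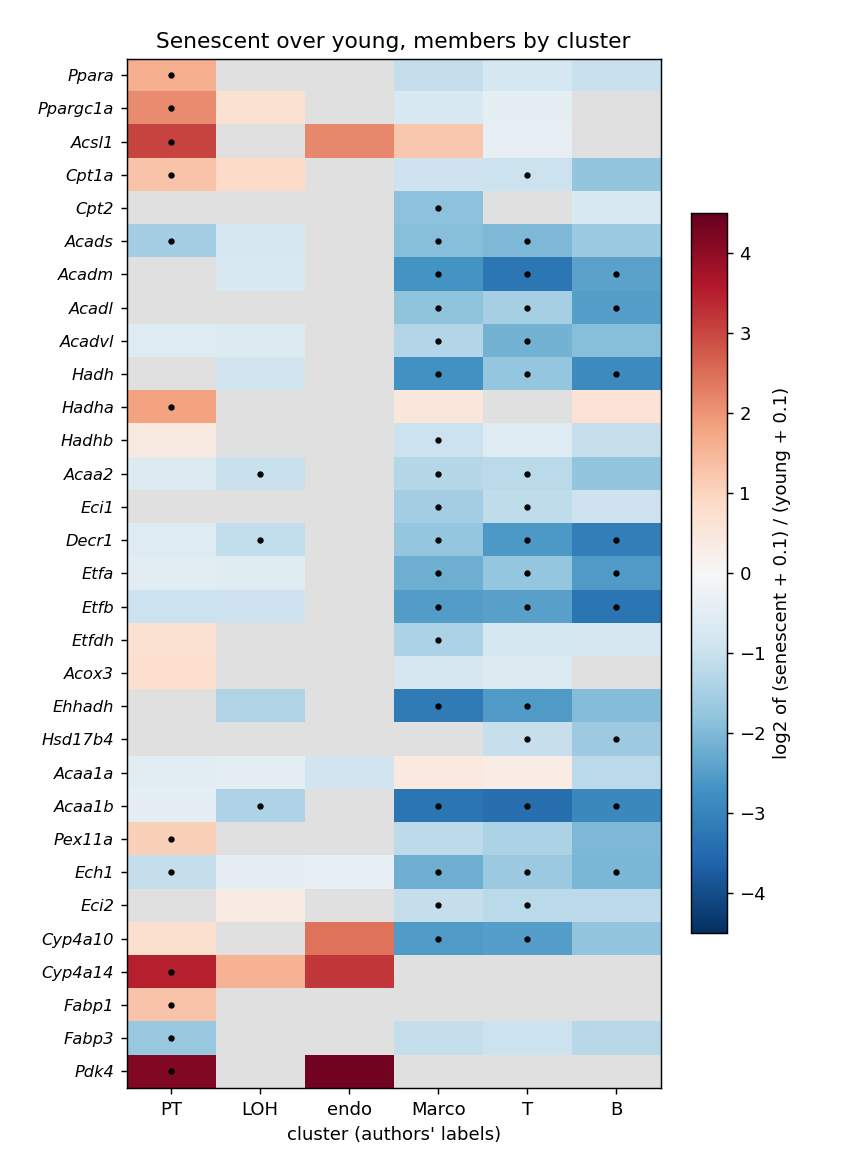
Log2 ratio of the senescent to the young mean after adding 0.1 to each, for 31 members (rows) in 6 clusters (columns). Red is higher and blue lower in the senescent library, grey marks a gene that is not listed, and dots mark the called genes. In PT 13 of 23 listed members are higher (56.5%, beside 78.4% of all genes listed there), and blue fills most of Marco, T and B. In endo only 6 members are listed, 4 of them higher and 0 called.

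Acadm and Hadh, which were not listed in PT, were called lower in Marco, T and B. Acadm had a mean of 0.838 in the senescent and 5.99 in the young library in Marco, 0.545 in the senescent and 6.00 in the young library in T, and 0.913 in the senescent and 5.27 in the young library in B. Hadh was 7.80-fold lower in Marco, 3.66-fold in T and 8.74-fold in B. Etfb, lower in PT by 1.94-fold, was lower by 6.00-fold in Marco, 5.71-fold in T and 10.7-fold in B.

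The listed peroxisomal members were lower in Marco, T and B, apart from Acaa1a in Marco and T. Ehhadh was 16.0-fold lower in Marco, at 0.116 in the senescent and 1.87 in the young library, and 13.2-fold lower in T, at 0.0667 in the senescent and 0.881 in the young library. Acaa1b was 12.5-fold lower in Marco, 13.5-fold in T and 9.32-fold in B. Hsd17b4 was called lower in T, at 0.201 in the senescent and 0.517 in the young library, and in B, at 0.209 in the senescent and 0.868 in the young library. Pex11a in B was listed at 0 in the senescent library and at 0.310 in the young library. The peroxisomal median log2 ratio was above the mitochondrial one in Marco (-0.28 and -0.74), T (-0.36 and -0.99), B (-0.63 and -0.72) and LOH (-0.47 and -0.57). With the log2 fold changes of the authors' deposited table this order was kept in Marco (-2.02 and -2.08) and T (-1.73 and -1.87) and turned round in B (-2.54 and -2.31) and LOH (-1.52 and -0.83). The medians rest on 5 peroxisomal genes in Marco, 6 in T, 5 in B and 3 in LOH. Without Pex11a, the Marco median lies midway between Ehhadh (-1.36) and Acox3 (-0.28), below the mitochondrial one. By the authors' log2 fold changes it then lies midway between Acaa1b (-3.65) and Acox3 (-0.94), again below. In T and B the order after adding 1 stayed without Pex11a. The clusters share their libraries, so they are not independent repeats.

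Acaa1a, Hadha and Acsl1 were the members with a higher senescent mean in Marco, T or B, and none of them met the adjusted p as higher there. Acaa1a was at 1.13 in the senescent and 0.811 in the young library in Marco and at 0.543 in the senescent and 0.414 in the young library in T. In B it was at 0.519 in the senescent and 1.32 in the young library. Hadha was at 0.786 in the senescent and 0.525 in the young library in Marco, and at 0.830 in the senescent and 0.491 in the young library in B. Acsl1 was at 0.724 in the senescent and 0.259 in the young library in Marco, and lower in T, at 0.272 in the senescent and 0.377 in the young library.

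Tubule markers were lower in the same clusters. In Marco 23 of 24 proximal tubule markers were listed, all lower and 20 called (87.0%), and they summed to 27.6 in the senescent and 854.5 in the young library, or 25.4 in the senescent and 212.7 in the young library without Kap. In T all 24 were lower, 21 called, with sums of 22.7 in the senescent and 692.4 in the young library, or 19.9 in the senescent and 187.5 in the young library without Kap. In B all 23 listed were lower, 17 called, with sums of 28.1 in the senescent and 699.6 in the young library, or 26.9 in the senescent and 200.8 in the young library without Kap. None of these markers was at 0 in either library.

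The level of the members outside PT was therefore set against their level in PT, over genes listed in both clusters. In Marco the median was 24.5% of the PT mean in the senescent and 87.9% in the young library over 20 members, and for 18 tubule markers it was 8.85% in the senescent and 99.5% in the young library. In T the medians were 21.8% in the senescent and 84.7% in the young library over 19 members, beside 7.42% in the senescent and 82.97% in the young library for 19 markers. In B they were 20.9% in the senescent and 70.3% in the young library over 17 members, beside 7.62% in the senescent and 66.5% in the young library for 18 markers. In the young library the members thus stood in immune clusters at about the level of the tubule markers relative to PT, and in the senescent library at a level above that of the markers. Cyp4a10, a tubule enzyme, was at 10.7% of its PT mean in senescent Marco and 138% in young Marco, close to the markers. Acaa1a, the highest of the 20 members in senescent Marco, was at 111% of its PT mean there and 56.4% in young Marco. Its near-identical copy Acaa1b was at 7.35% of its PT mean in senescent Marco and 66.7% in young Marco. Tubule transcripts in the young immune clusters and expression by the immune cells themselves cannot be told apart in these means.

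**Figure D5:**
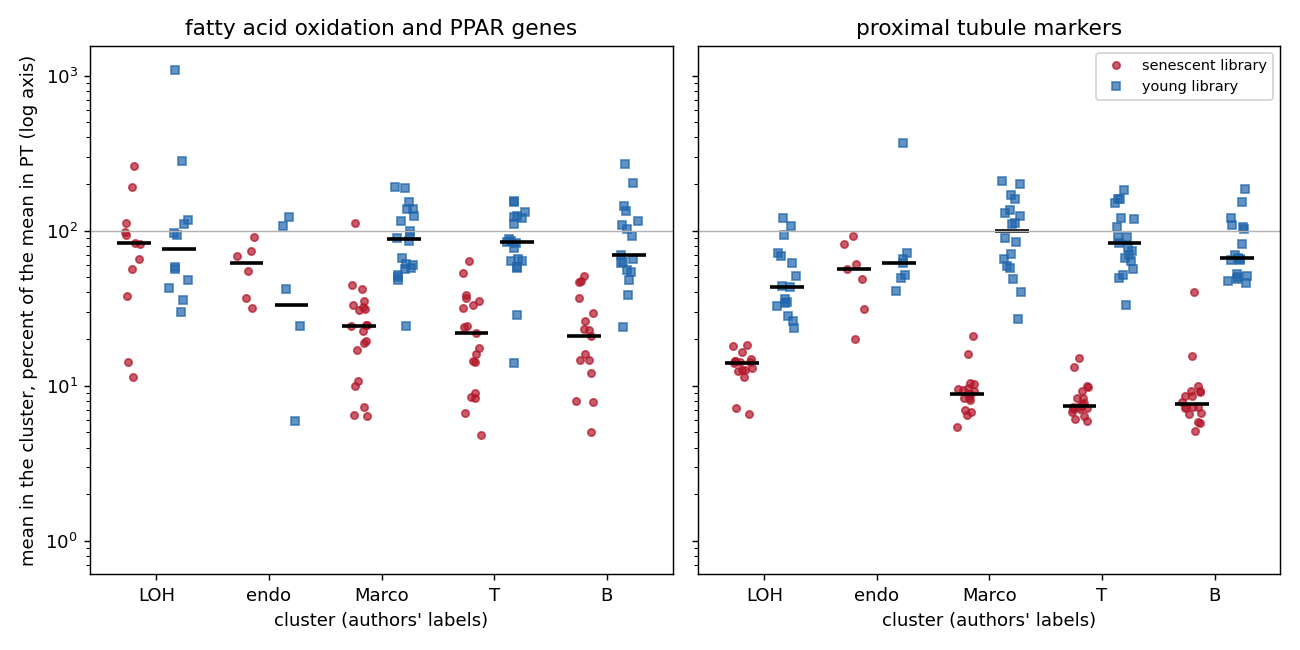
Mean in a cluster as percent of the mean in PT (log axis) for members (left panel) and proximal tubule markers (right panel), 1 point per gene, senescent library left and young library right within each cluster, bars at the medians. Genes at 0 (Pex11a in senescent B and Pdk4 in young endo) have no point but count in the medians. In Marco, T and B the senescent medians of the members lie between 20.9% and 24.5%, and those of the markers between 7.42% and 8.85%.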

How the data were processed

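Droplet single-cell libraries of kidney cells from senescent and young C57BL/6 mice were analysed, 1 per group. Reads were processed with Cell Ranger 2.1.1 against mm10, per the submitters' processing notes. The sources used here do not give the cell filters, doublet handling, clustering or test. The deposited group columns hold a signal, the authors' mean of scaled expression per cell of a cluster, with an unstated scale. Columns were assigned to libraries by the descriptions in the labels. With 0.0001 added to both means, senescent over young gives the deposited log2 fold changes within 0.01 in all but 1 of 20111 entries. The deposited adjusted p-value is about 32574 times the p-value, a Bonferroni-like factor. Since the depth is unknown, no counting interval was computed.

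Counts of called genes, ratios of means and list medians were computed with Python 3.11.15, numpy 2.4.6 and pandas 2.3.3, and drawn with matplotlib 3.10.9. Medians used a pseudocount of 1, members reaching a mean of 0.1 in either library and at least 3 such members. The counting was tested on simulated data. The members and lists were chosen with earlier results of these data known. Any member could be named. From each pathway list, up to 6 genes in PT with the largest log2 fold change in either direction could be named, if the adjusted p did not exceed 0.05 and either mean reached 0.1. Symbols of all 32 members were matched to RefSeq (GRCm38.p6), which gave positions. No sequence was used here. A gene that the naming rule allows is not reported here.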

Additional observations from a re-analysis of the deposited data

Results flagged for a closer look

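By the authors' deposited table, these members had an adjusted p under 0.05 in opposite directions in PT and in an immune cluster. The value is the log2 fold change in PT minus that in the other cluster, and the difference itself was not tested, since each group had 1 library. For Cpt1a, higher in PT and lower in T, it was 2.80. For Hadhb it was 1.56 against Marco and 1.07 against T. For Etfdh it was 3.01 against Marco. For Cyp4a10 it was 3.69 against Marco and 3.99 against T. Proximal tubule markers were lower in all of the 23 listed in Marco and the 24 listed in T, and their part in these differences was not tested. The share of all listed genes that differ in this way was not computed, so the members are not set apart from other genes by it.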

How the results depend on the processing

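With 1 library per group and means only, no replicate could be left out and no paired analysis was possible. At a minimum mean of 1 in the higher library, the members called higher in PT numbered 5 in place of 9. At an absolute log2 fold change of 0.58, the members called lower numbered 7 in place of 3 in PT and 6 in place of 3 in LOH. LOH had 1 at an adjusted p of 0.001 and 1 at a log2 fold change of 1.5. The counts for Marco, T and B stayed within 1.5 times of their values under all 6 alternatives tried for them. In PT the mitochondrial median was -0.56 with a pseudocount of 0.01 and -0.56 with the authors' log2 fold changes, in place of -0.36. The peroxisomal median, 0.02, was 0.16 with a pseudocount of 0.1, 0.22 with 0.01 and 0.23 with the authors' log2 fold changes, and it turned to -0.28 with Ech1 and Eci2 counted as peroxisomal and to -0.28 without Pex11a. The difference of the medians, 0.38, was 0.69, 0.78 and 0.79 under these pseudocounts and the authors' values, and 0.0860 with Ech1 and Eci2 as peroxisomal or without Pex11a. The libraries scaled to the same sum over the genes listed in PT, chosen after seeing the data, shifted all log2 ratios by 0.03, turned the direction of no listed member and gave a peroxisomal median of 0.0346. Means are given without depth, so folds of genes with a mean near 0 are uncertain.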

Other observations

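The pathway annotation in the authors' deposited table gave wider gene groups, chosen after the values were seen. Of 53 genes annotated to PPAR signalling, 14 of them members, 34 were listed in PT, 27 higher and 7 lower, with 15 called higher (44.1%) and 3 called lower (8.82%). Of 41 genes annotated to fatty acid degradation, 19 of them members, 26 were listed in PT, 16 higher and 10 lower, with 8 called higher (30.8%) and 4 called lower (15.4%). Of 72 genes annotated to the peroxisome, 9 of them members, 54 were listed in PT, 29 higher and 25 lower, with 17 called higher (31.5%) and 12 called lower (22.2%). Of all genes listed in PT, 57.2% were called higher and 5.60% lower.

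In T, Crat, the carnitine acetyltransferase of mitochondria and peroxisomes, was at 0.0252 in the senescent and 0.486 in the young library, and Cd36, a fatty acid translocase, was at 0.139 in the senescent and 1.69 in the young library. Cyp4a12a, an androgen-dependent omega-hydroxylase of the male kidney, was at 0.00168 in the senescent and 0.263 in the young library in Marco, and in T it was listed at 0 in the senescent and at 0.181 in the young library. The senescent means of Crat and Cyp4a12a are near 0, so the size of their folds is uncertain. Proximal tubule markers were lower in all of the 23 listed in Marco and the 24 listed in T. The part of tubule transcripts in the values of Crat, Cd36 and Cyp4a12a was not tested.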
